A study of Homo sapiens with 9 samples.

Results

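The genes described here encode 6 cell-surface proteins through which a cell can engage T cells and natural killer (NK) cells: CD86, CD80, CD48, CD58, CD40 and CD274. They were picked by name, as the rows with these symbols in both deposited expression tables, and all 6 were found once in each, among 36119 loci in the knockout table and 35856 loci in the treatment table. NB4 is a human cell line of acute promyelocytic leukaemia; it expresses the fusion of PML with RARA and differentiates towards granulocytes under retinoic acid. RNA was sequenced from 9 NB4 libraries. Of these, 5 came from cells treated for 24 h, 1 library each, with MC_2580 + RA 0.01 uM (called the combination below), MC_2580 alone, RA 0.01 uM, RA 1 uM or the vehicle DMSO, where MC_2580 is an inhibitor of the histone demethylase LSD1, RA is read as retinoic acid, and the dose of MC_2580 is not given. The other 4 were untreated LSD1 KO and WT cells, 2 libraries each, and the labels do not say whether the KO cells are 1 clone or whether replicates came from separate cultures, so a p-value here reflects library-to-library spread that may be technical.

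CD86 and CD80 are the B7 ligands that an antigen-presenting cell shows to CD28 on T cells, which costimulates, and to CTLA4, which restrains. CD48, a glycolipid-anchored protein of the SLAM family, binds CD244 on NK and T cells, and CD58 binds CD2, and both help to hold the contact between cells. CD40 is a receptor of the TNF family on antigen-presenting cells that is engaged by CD40LG and signals to NF-kB, and CD274 (PD-L1) inhibits T cells through PDCD1 and is induced by interferon gamma through JAK2 and IRF1.

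As a check of the labels, KDM1A, which encodes LSD1 and is listed as AOF2, had 13.96 and 16.8 FPKM (fragments per kilobase of transcript, scaled to library size) in LSD1 KO, against 49.8 and 66.6 FPKM in WT. Total reads were not given; from the spacing of low values, the other treatment libraries held 0.731 to 0.896 times as many reads per FPKM as DMSO, and the KO and second WT libraries 1.04 to 1.66 times as many as the first WT library. With 1 library per treatment there is no replicate check and no test. A difference is therefore called past 2-fold of (FPKM + 1), among genes with at least 1 FPKM in 1 of the 2 libraries, and read against the share of all protein-coding genes with 1 locus called the same way. Differences are given as log2(FPKM + 1), which understates the change of low genes. KO and WT were compared with limma on the same scale, with Benjamini-Hochberg adjustment over all loci tested.

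At the level of FPKM, which is scaled by length, the 6 genes fell into 2 tiers in untreated cells. In bulk RNA, fewer cells with a transcript and less of it per cell cannot be told apart. In WT, CD58 had 22.3 and 16.8 FPKM and CD48 had 17.3 and 7.54 FPKM, and these ranges overlap. The other 4 genes were below 1 FPKM in both WT libraries: CD86 at 0.629 and 0.408, CD274 at 0.0891 and 0.215, CD40 at 0.137 and 0.0481, and CD80 at 0 and 0.0227 FPKM. Among these, CD86 lay above the rest, and the ranges of CD274 and CD40 overlapped. In the combination the order was CD48 at 42.3, CD58 at 35.4, CD86 at 27.3, CD274 at 1.10, CD40 at 0.794 and CD80 at 0.0648 FPKM, so that CD86 was the gene that joined the upper tier.

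**Figure D1:**
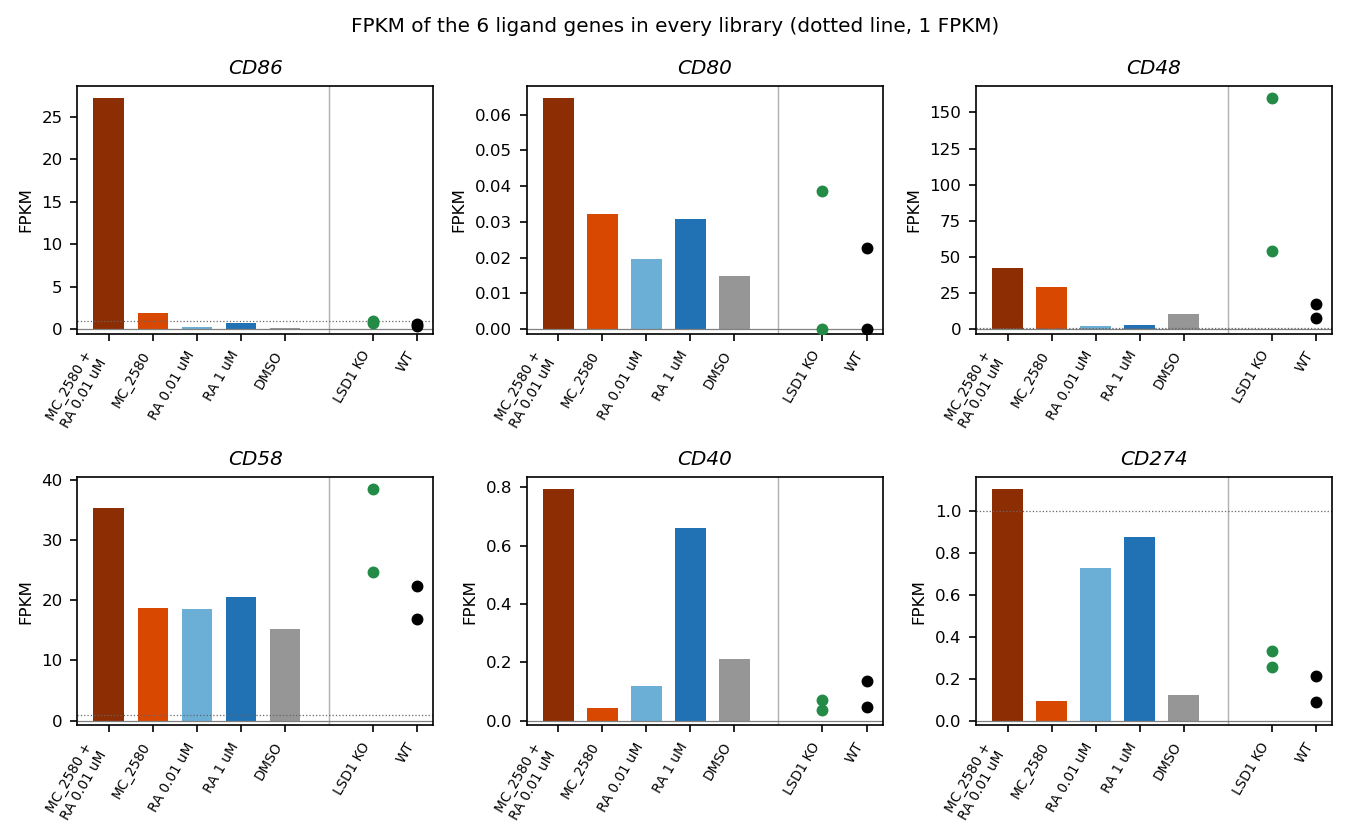
FPKM (vertical axes, linear, scaled per gene) of the 6 ligand genes. Bars are the single treatment libraries in the order combination, MC_2580, RA 0.01 uM, RA 1 uM and DMSO; points are the 2 LSD1 KO and 2 WT libraries. CD86 reached 27.3 FPKM in the combination only, CD48 had its highest values in LSD1 KO (160.3 and 54.3 FPKM), and CD80 and CD40 stayed below 1 FPKM throughout.

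CD86, which costimulates T cells through CD28, was close to silent unless MC_2580 was present. It had 27.3 FPKM in the combination, 1.93 FPKM in MC_2580, 0.219 FPKM in RA 0.01 uM, 0.736 FPKM in RA 1 uM and 0.170 FPKM in DMSO. The combination stood alone, far above the next library. The difference from DMSO was 4.60 on the log2 scale for the combination, a ratio of 160.6 in FPKM, which ranked 48 among 9894 protein-coding genes. It was 1.32 for MC_2580, ranked 33 of 9584, so that a small difference in FPKM was among the larger ones of that library. RA alone gave 0.06 at 0.01 uM and 0.57 at 1 uM, where CD86 was below 1 FPKM in both libraries of each pair, so that no 2-fold call could be made. Set against RA at the same dose, the combination differed by 4.54, ranked 4 of 9787 genes, and against RA 1 uM by 4.03, ranked 4 of 9763. In untreated cells, CD86 had 1.00 and 0.665 FPKM in LSD1 KO, against 0.629 and 0.408 FPKM in WT. The KO values lay above the WT values without overlap, but the gene was below the filter of a group mean of 1 FPKM. Without that filter the difference was 0.27 (SE 0.23), with a limma unadjusted p of 0.328 and an adjusted p of 1.

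RefSeq gives CD86 a pair of promoters, shown here because it is the gene of the 6 with the largest response. The 250 bases before each start are written on the gene's strand from the RefSeq table for GRCh38.p14, a later build than the hg18 of the files, which do not say which start was used. The capitals mark matches, on either strand, to 7 short motifs: the ETS and PU.1 core GAGGAA, the GFI1 core AAATCA, the interferon-stimulated response element core (GAAA and GAAA with 2 bases between), the gamma-activated site TTCNNNGAA, the C/EBP site TTGCNNAA, the retinoid half-site AGGTCA and the NF-kB site (GGG and TTTCC with 2 bases between).
CD86 promoter 1, chr3:122055112-122055361, plus strand: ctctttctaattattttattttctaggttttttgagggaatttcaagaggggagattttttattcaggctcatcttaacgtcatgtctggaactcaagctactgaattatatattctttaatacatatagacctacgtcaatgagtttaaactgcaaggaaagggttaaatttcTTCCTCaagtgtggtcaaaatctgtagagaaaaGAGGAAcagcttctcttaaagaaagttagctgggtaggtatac
CD86 promoter 2, chr3:122077534-122077783, plus strand: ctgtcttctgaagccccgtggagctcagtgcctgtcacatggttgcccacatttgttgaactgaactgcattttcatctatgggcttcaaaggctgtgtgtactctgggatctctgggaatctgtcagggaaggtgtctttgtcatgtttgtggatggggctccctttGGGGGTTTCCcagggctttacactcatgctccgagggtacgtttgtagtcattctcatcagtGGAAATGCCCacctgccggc
The capitals in promoter 1 are 2 ETS and PU.1 cores, at 76 to 71 and at 43 to 38 bases before the start, a motif that 23.6% of the 35116 promoters in the table hold. Those in promoter 2 are 2 NF-kB sites, at 82 to 73 and at 20 to 11 bases before the start, a motif held by 1.73%. A match is a description of the letters and does not show binding.

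CD80, the other B7 ligand, lies at chr3:120725830-120761171 on hg18, 2495740 bases from CD86 at chr3:123256911-123322672, and was barely detected in any library. It had 0.0648 FPKM in the combination, 0.0321 FPKM in MC_2580, 0.0197 FPKM in RA 0.01 uM, 0.0308 FPKM in RA 1 uM and 0.0149 FPKM in DMSO. After scaling for relative depth these are 3.35, 1.91, 0.969, 1.85 and 1 times the DMSO value, so that single reads may set these values. LSD1 KO libraries had 0 and 0.0387 FPKM, against 0 and 0.0227 FPKM in WT, and overlapped. No difference in CD80 was detectable at this depth, also in the combination, where CD86 had its highest value.

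CD48, which engages CD244, was higher than in DMSO in the single libraries with MC_2580 and lower in those with RA alone. It had 42.3 FPKM in the combination, 29.4 FPKM in MC_2580, 2.34 FPKM in RA 0.01 uM, 3.04 FPKM in RA 1 uM and 10.4 FPKM in DMSO. Both libraries with MC_2580 were above DMSO and both with RA alone were below it. MC_2580 differed from DMSO by 1.42, ranked 27 of 9584 genes from the highest. RA 0.01 uM differed by -1.77 and RA 1 uM by -1.49, ranked 47 of 9705 and 95 of 9741 from the lowest. The combination differed from DMSO by 1.93, and from RA 0.01 uM and RA 1 uM by 3.70 and 3.42, ranked 14 and 8 from the highest. From MC_2580 alone it differed by 0.51, within 2-fold. Libraries of 1 genotype also differed in CD48, by 1.10 in WT and 1.55 in LSD1 KO. The 1.42 of MC_2580 and the -1.49 of RA 1 uM are no larger in size than that KO difference. The authors' deposited table did not call CD48 for MC_2580 or either dose of RA against DMSO.

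LSD1 KO libraries had 160.3 and 54.3 FPKM of CD48, against 17.3 and 7.54 FPKM in WT. The groups did not overlap, and KO averaged 107 ± 75.0 FPKM and WT 12.4 ± 6.93 FPKM (SD, n = 2 each). The limma difference was 2.92 (SE 0.70) on the log2 scale, with an unadjusted p of 0.0154 and an adjusted p of 0.486, so it did not pass. This fit held no replicate block, so differences shared by same-numbered libraries count as spread. The 2 libraries of each genotype also differed: the first exceeded the second by 1.55 in KO and by 1.10 in WT on the log2 scale, past 2-fold, as did 3.42% of protein-coding genes between the KO libraries and 3.78% between the WT libraries, in either direction. NFKB2, a subunit of NF-kB, differed between the same libraries, with 8.03 and 1.20 FPKM in KO and 18.3 and 2.88 FPKM in WT, and its part in the level of CD48 was not tested. Within replicate numbers the ratio of KO to WT was 9.25 and 7.20. In the authors' deposited table, which compares 1 KO library with 1 WT library, CD48 was called in both comparisons, with log2 fold changes of 3.21 and 2.85.

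CD48 sits at chr1:158915162-158948217 on hg18, within the SLAM gene cluster, whose other listed genes were below 1 FPKM except for CD244 and CD84. SLAMF7, 27484 bases away, had 0.150 FPKM in the combination and 0.0252 FPKM in MC_2580 and was listed at 0 in DMSO. SLAMF1, 31669 bases away on the other side, had 0.129 FPKM in the combination, 0.0883 FPKM in MC_2580, 0.0382 FPKM in RA 0.01 uM, 0.0249 FPKM in RA 1 uM and 0.0112 FPKM in DMSO, and 0.0842 and 0.0862 FPKM in LSD1 KO, against 0.0427 and 0.0525 FPKM in WT. Its values were thus higher in both MC_2580 libraries and in KO, as those of CD48 were, but far below 1 FPKM and not below DMSO with RA alone. CD244, itself the receptor of CD48, had 4.98 FPKM in the combination, 2.44 FPKM in MC_2580 and 3.06 FPKM in DMSO, and CD84 had 7.85, 4.74 and 3.47 FPKM in the same libraries. Of the 10 SLAM family and adaptor genes listed, CD244 and CD84 alone reached 1 FPKM, and neither passed 2-fold in any of the 8 treatment comparisons. CD84 came close in the combination against DMSO, with a difference of 0.986. In LSD1 KO, CD244 had 5.12 and 3.13 FPKM, against 6.96 and 4.95 FPKM in WT, and CD84 had 2.76 and 3.50 FPKM, against 4.35 and 4.20 FPKM in WT.

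The promoter of CD48 is shown for comparison with those of CD86, written and searched in the same way.
CD48 promoter, chr1:160711823-160712072, minus strand: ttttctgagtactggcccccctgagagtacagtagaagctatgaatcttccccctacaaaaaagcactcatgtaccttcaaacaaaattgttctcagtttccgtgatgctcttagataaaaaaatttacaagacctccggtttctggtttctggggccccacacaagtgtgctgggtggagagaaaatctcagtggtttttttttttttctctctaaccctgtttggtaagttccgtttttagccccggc
None of the 7 motifs matched in these 250 bases, which says only that those letters are not in this window.

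CD58, which adheres to CD2, was expressed in all 9 libraries and varied least among the 3 genes of the upper tier. At chr1:116858958-116915184 on hg18, it had 35.4 FPKM in the combination, 18.6 FPKM in MC_2580, 18.5 FPKM in RA 0.01 uM, 20.5 FPKM in RA 1 uM and 15.2 FPKM in DMSO. The 3 single-agent libraries lay close together and above DMSO, and the combination above them. The combination differed from DMSO by 1.17, its one difference past 2-fold, ranked 757 of 9894 genes. LSD1 KO libraries had 38.5 and 24.6 FPKM, against 22.3 and 16.8 FPKM in WT. KO lay above WT without overlap, with a difference of 0.64 (SE 0.30) and a limma adjusted p of 0.816.

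CD40, the receptor that T cells engage with CD40LG, stayed below 1 FPKM in every library, so that no 2-fold call could be made. At chr20:44180313-44195894 on hg18, it had 0.794 FPKM in the combination, 0.0447 FPKM in MC_2580, 0.119 FPKM in RA 0.01 uM, 0.662 FPKM in RA 1 uM and 0.211 FPKM in DMSO. The combination and RA 1 uM were above DMSO, and MC_2580 alone and RA 0.01 uM alone were below it. LSD1 KO libraries had 0.0715 and 0.0381 FPKM, against 0.137 and 0.0481 FPKM in WT, and overlapped.

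CD274, the inhibitory ligand, was higher in each library with RA, with or without MC_2580. At chr9:5440559-5471569 on hg18, it had 1.10 FPKM in the combination, 0.0941 FPKM in MC_2580, 0.726 FPKM in RA 0.01 uM, 0.874 FPKM in RA 1 uM and 0.120 FPKM in DMSO. All 3 libraries with RA were above both libraries without it. On the log2 scale the combination differed from DMSO by 0.91, under the 2-fold threshold, although the ratio in FPKM was 9.18. RA 0.01 uM and RA 1 uM differed from DMSO by 0.62 and 0.74, with both libraries of each pair below 1 FPKM. LSD1 KO libraries had 0.254 and 0.330 FPKM, against 0.0891 and 0.215 FPKM in WT, without overlap but below the filter. JAK2, the interferon receptor kinase encoded 322564 bases from CD274, had 17.2 FPKM in the combination, 5.53 FPKM in MC_2580, 8.76 FPKM in RA 0.01 uM, 13.1 FPKM in RA 1 uM and 5.48 FPKM in DMSO. PDCD1LG2, the neighbouring gene for the second ligand of PDCD1, was listed at 0 in all treatment libraries but RA 1 uM, where it had 0.0173 FPKM.

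The promoter of CD274 is shown because it carries the interferon motifs through which the gene is known to be induced.
CD274 promoter, chr9:5450292-5450541, plus strand: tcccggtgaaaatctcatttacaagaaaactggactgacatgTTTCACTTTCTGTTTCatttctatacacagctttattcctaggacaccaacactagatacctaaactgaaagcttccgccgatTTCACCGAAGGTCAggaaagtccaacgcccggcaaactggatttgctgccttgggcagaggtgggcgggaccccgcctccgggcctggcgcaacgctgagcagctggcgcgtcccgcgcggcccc
The first run of capitals is 2 overlapping interferon-stimulated response element cores, from 208 to 193 bases before the start, a motif held by 3.02% of promoters. The second is a gamma-activated site from 125 to 117, held by 6.57%, that shares 1 base with a retinoid half-site from 117 to 112, held by 12.1%. Neither promoter of CD86 and not that of CD48 held any of these 3 motifs.

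Counted over the members, the combination against DMSO had 4 of the 6 genes with at least 1 FPKM, of which CD86, CD48 and CD58 were higher past 2-fold and none lower, against backgrounds of 9.36% higher and 3.42% lower among protein-coding genes. MC_2580 against DMSO had 3 genes with 1 FPKM, of which CD86 and CD48 were higher, and the background was small, with 0.741% higher and 0.0104% lower. RA 0.01 uM against DMSO had 2 such genes, and CD48 was lower, against backgrounds of 4.87% higher and 2.78% lower. RA 1 uM against DMSO gave the same single call, with 6.5% higher and 2.7% lower. CD86 and CD48 were higher in the combination than in RA 0.01 uM, where 4.61% of genes were higher and 0.358% lower, and than in RA 1 uM, where 3.35% were higher and 0.481% lower. Between RA 1 uM and RA 0.01 uM no member passed, and 0.753% of genes were higher and 0.178% lower. The combination against MC_2580 had CD86 higher alone, with 7.87% higher and 3.32% lower. These comparisons share libraries and are not independent of each other. CD86 met the 1 FPKM minimum only through the library where it was high, except for the combination against MC_2580. CD274 met it only through the combination. In those pairs neither gene could have been called lower. The members were also chosen with earlier results of these data known, so that their counts are no test against the backgrounds.

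**Figure D2:**
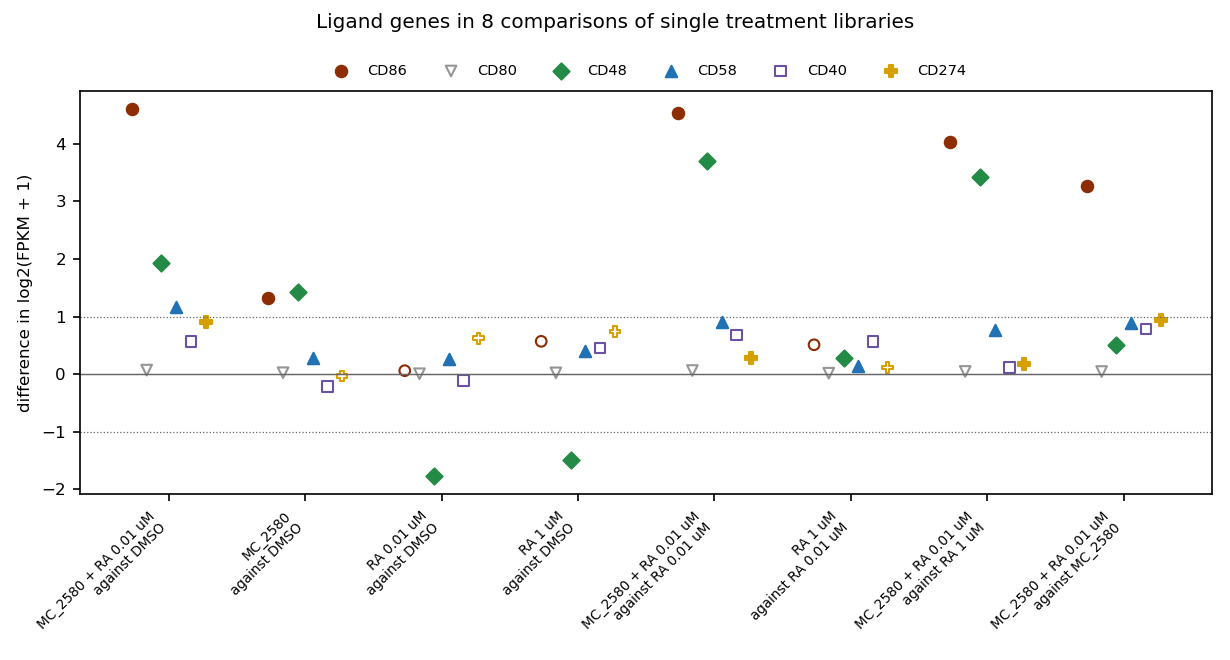
Differences in log2(FPKM + 1) of the 6 ligand genes (vertical axis) in the 8 comparisons of single treatment libraries (horizontal axis). Filled symbols are pairs with at least 1 FPKM in 1 library, open symbols pairs below it, and dotted lines mark 2-fold. CD86 and CD48 are the symbols farthest from 0 where the combination or MC_2580 is set against DMSO and where the combination is set against either dose of RA, and CD48 is the one symbol below the lower line, in both comparisons of RA alone with DMSO.

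The authors' deposited table holds significance calls for each pair of libraries, and these included low genes that the 1 FPKM minimum left out. For the combination against DMSO, the authors' deposited table called CD86, CD48 and CD274, where it called 6.61% of protein-coding genes in either direction. For MC_2580 against DMSO it was CD86 alone (background 0.538%), and the authors' deposited table did not call CD48. For RA 0.01 uM against DMSO the authors' deposited table called no member (4.39%), and for RA 1 uM against DMSO CD86 and CD274 (5.02%). CD86, CD40 and CD48 were called in the authors' deposited table between the combination and RA 0.01 uM (2.48%), and CD86 and CD48 between the combination and RA 1 uM (1.97%). CD40 was the member called in the authors' deposited table between RA 1 uM and RA 0.01 uM (0.546%), and CD86, CD40 and CD274 between the combination and MC_2580 (5.71%). Between KO and WT, the authors' deposited table called CD48 alone in each replicate number, where 0.629% and 0.497% of genes were called.

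In the limma comparison of LSD1 KO with WT, 15 of 13157 loci (0.114%) passed, 8 higher and 7 lower, and no member was among them. KDM1A, the gene knocked out, did not pass either, with a difference of -1.845 (SE 0.229) and a limma adjusted p of 0.158. A gene that did not pass may therefore have changed. The share of all loci whose KO and WT values do not overlap is not given here. A lack of overlap between so few libraries is therefore only a description. CD48 and CD58 were the 2 members that met the filter, and CD48 alone had an unadjusted p under 0.05, as had 942 loci. With any 1 of the 4 libraries left out, 0 loci passed (654 to 801 at an unadjusted p under 0.05), and with a replicate block 0 passed as well (3198).

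To see how the 2 agents combined, the difference of the combination from DMSO was set against the sum of the differences of MC_2580 and RA 0.01 uM alone. For CD86 the combination gave 4.60 and the sum 1.38, an excess of 3.21 that ranked 6 among 9832 protein-coding genes. For CD48 the combination gave 1.93 and the sum -0.34, an excess of 2.27 that ranked 28. Over all these genes the median excess was 0.04 and the central 95% ran from -0.59 to 1.04, so that both genes lay outside it. CD58 had an excess of 0.62 (rank 634) and CD274 one of 0.32 (rank 1711), both inside that range. CD40, below the minimum, had 0.89, and CD80 had 0.04. For CD48 the excess depends on the scale: when FPKM differences were added instead, 42.3 FPKM were measured, against a sum of 21.4 FPKM, an excess of 0.95, whereas that of CD86 was 3.25. With 1 library each, none of these was tested.

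**Figure D3:**
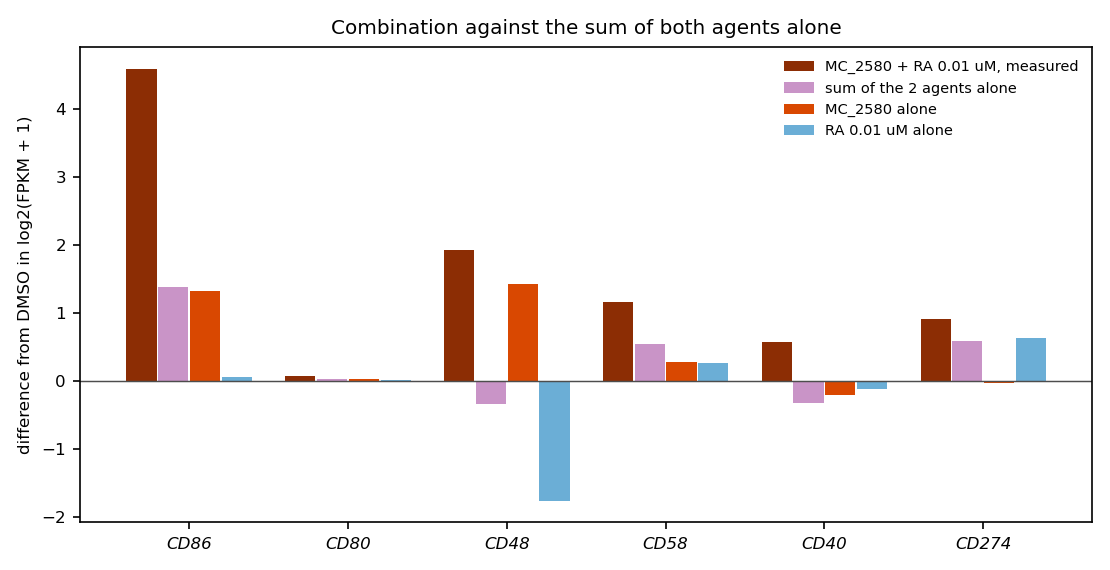
Difference from DMSO in log2(FPKM + 1) (vertical axis) for the measured combination, the sum of both agents alone, MC_2580 alone and RA 0.01 uM alone, for each ligand gene. CD86 stands at 4.60 in the combination against 1.38 for the sum, and CD48 at 1.93 against -0.34, with its bars for MC_2580 and RA on opposite sides of 0.

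The genes whose pattern was nearest to each member were found over 5 differences (the 4 treatments from DMSO, and KO from WT) among 9810 protein-coding genes, by the root mean square of the gaps in log2. For CD86 they were HP (0.57), the plasma haemoglobin carrier haptoglobin, GBP1 (0.58), an interferon-induced GTPase, and SLC15A3 (0.61), a lysosomal peptide transporter. HP had 15.9 FPKM in the combination, 0.366 FPKM in MC_2580 and 0.112 FPKM in DMSO. For CD48 they were CHST2 (0.53), a sulfotransferase, SEPTIN10 (0.65), a cytoskeletal septin, and GLIPR1 (0.69). CHST2 had 9.07 FPKM in the combination, 11 FPKM in MC_2580, 0.157 FPKM in RA 0.01 uM, 0.233 FPKM in RA 1 uM and 3.13 FPKM in DMSO. It also had 15.7 and 15.3 FPKM in LSD1 KO, against 3.92 and 2.65 FPKM in WT, a pattern of both MC_2580 libraries high and both RA libraries low like that of CD48. For CD58 they were the kinesin KIF13B (0.08), the heparan sulfate enzyme NDST1 (0.11) and MTMR11 (0.12), all nearer than those of CD86 and CD48, as small differences are.

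**Figure D4:**
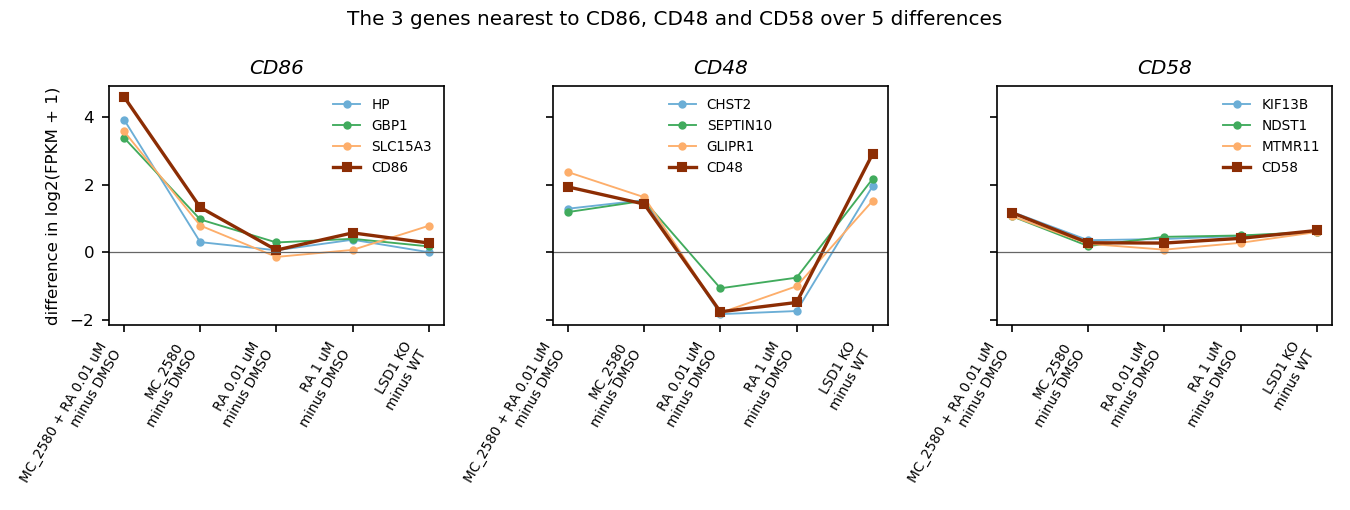
Differences in log2(FPKM + 1) (vertical axis) of CD86, CD48 and CD58 (squares) and the 3 genes nearest to each (circles), over the 4 treatments against DMSO and LSD1 KO against WT. CD86 and its nearest genes are high in the combination, and CD48 and its nearest genes are above 0 with MC_2580 and in KO and below 0 with RA alone.

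Of 25 other B7, butyrophilin and TNF-family ligands, 14 had at least 1 FPKM in the combination or DMSO. Of these, 6 were higher past 2-fold in the combination and none lower, with a median difference of 0.81, against -0.02 over all protein-coding genes tested. Among all protein-coding genes, 9.36% were higher and 3.42% lower in this comparison. VSIR, a B7-related inhibitor of T cells, had 111 FPKM in the combination, 70.9 FPKM in RA 0.01 uM, 99.8 FPKM in RA 1 uM and 2.15 FPKM in DMSO, and its MC_2580 value had failed. LGALS9, which codes for the HAVCR2 ligand galectin-9, had 37.1 FPKM in the combination, 1.435 FPKM in MC_2580, 29.8 FPKM in RA 0.01 uM, 27.9 FPKM in RA 1 uM and 1.12 FPKM in DMSO. Like TNFSF9 (the ligand of the costimulatory receptor 4-1BB) and TNFRSF14, these were high wherever RA was present. BTN2A1 and BTN3A3 were the other 2 past 2-fold, with differences of 1.26 and 1.03. None of the list passed for MC_2580 against DMSO (13 tested) or for the combination against RA 0.01 uM (13 tested). The backgrounds there were 0.741% and 4.61% higher, so that none of 13 is near those shares. CD86 and CD48 were higher in both comparisons, as were some adhesion genes (below). ICOSLG, the B7 ligand of ICOS, had 7.06 FPKM in the combination, 12.1 FPKM in MC_2580, 7.37 FPKM in RA 0.01 uM, 6.40 FPKM in RA 1 uM and 12.9 FPKM in DMSO.

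Receptors of these ligands were mostly below 1 FPKM. Of 17 listed, 4 had 1 FPKM in the combination or DMSO, with TNFRSF9 and HAVCR2 higher, TNFRSF4 lower and CD244 neither. The background was 9.36% higher and 3.42% lower. CD28 and CTLA4 were listed at 0 in all 5 treatment libraries. CD2, the receptor of CD58, had 3.45 and 3.06 FPKM in LSD1 KO, against 0.0724 and 0.0602 FPKM in WT, a difference of 2.00 with a limma adjusted p of 0.158. In the treatment libraries CD2 was at or below 0.0864 FPKM.

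Of 14 CD40 signalling genes tested, BIRC3 and NFKBIA, an apoptosis inhibitor and an inhibitor of NF-kB that are both NF-kB targets, were higher in the combination than in DMSO and none was lower, with a median difference of 0.55. The background was 9.36% higher and 3.42% lower, which 2 of 14 hardly exceeds. Against RA 0.01 uM, 5 of 13 were higher, with a background of 4.61%. BIRC3 had 14.3 FPKM in the combination, 1.86 FPKM in MC_2580, 1.24 FPKM in RA 0.01 uM, 2.48 FPKM in RA 1 uM and 0.959 FPKM in DMSO. Its high value stands in the same single library as that of CD86. NFKB2 had 26.7 FPKM in the combination, 22.4 FPKM in MC_2580, 6.99 FPKM in RA 0.01 uM, 10.6 FPKM in RA 1 uM and 13.8 FPKM in DMSO, the order in which CD48, and RELB and TNFAIP3 of the same list, also lay. Between LSD1 KO and WT it had the opposite sign to CD48, -0.96 against 2.92, with limma adjusted p-values of 0.912 and 0.486.

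Of 14 genes known to regulate CD274 that were tested, 6 were higher in the combination than in DMSO (IRF1, IRF9, JAK2, STAT2, IFNGR1 and CMTM6), and MYC was lower. The background was 9.36% higher and 3.42% lower. IRF1, the transcription factor through which interferon gamma induces CD274, had 162.5 FPKM in the combination, 22.6 FPKM in MC_2580, 118.7 FPKM in RA 0.01 uM, 122.8 FPKM in RA 1 uM and 15.5 FPKM in DMSO. Its libraries fell in the same order as those of CD274 except for MC_2580 and DMSO. CMTM6, which stabilises the CD274 protein, had 85.5 FPKM in the combination, 41.3 FPKM in MC_2580, 71.1 FPKM in RA 0.01 uM, 83.1 FPKM in RA 1 uM and 42.1 FPKM in DMSO.

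Antigen presentation and adhesion genes were measured as partners of costimulation. In the combination against DMSO, the background for each list was 9.36% higher and 3.42% lower. Of 8 adhesion genes tested, 5 were higher in the combination than in DMSO and none lower, with a median of 2.40, and ICAM1 was the highest, at 1854 FPKM in the combination, 28.7 FPKM in MC_2580, 424.8 FPKM in RA 0.01 uM, 593.7 FPKM in RA 1 uM and 10.6 FPKM in DMSO. Adhesion genes were also higher in other comparisons where CD86 and CD48 were. For MC_2580 against DMSO, 3 of 8 were higher (ICAM1, ICAM3 and ICAM2) and none lower, with a background of 0.741% higher. For the combination against RA 0.01 uM, 5 of 10 were higher and none lower, with a background of 4.61% higher. In the combination against DMSO, of 7 class I genes tested, PSMB10, ERAP2 and TAPBP were higher and CALR lower. Of 5 class II genes tested, CD74, the invariant chain, and CTSS, the protease that cleaves it, were higher. CD74 had 12.7 FPKM in the combination, 1.24 FPKM in MC_2580, 1.20 FPKM in RA 0.01 uM, 2.20 FPKM in RA 1 uM and 0.644 FPKM in DMSO, and CIITA, the class II transactivator, was below 1 FPKM in every library. Most HLA genes have several loci in the tables and were not used here. Of 6 stress ligands read by NK cells and present once in the treatment table, CLEC2B alone had 1 FPKM, at 3.21 FPKM in the combination and 1.45 FPKM in DMSO.

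**Figure D5:**
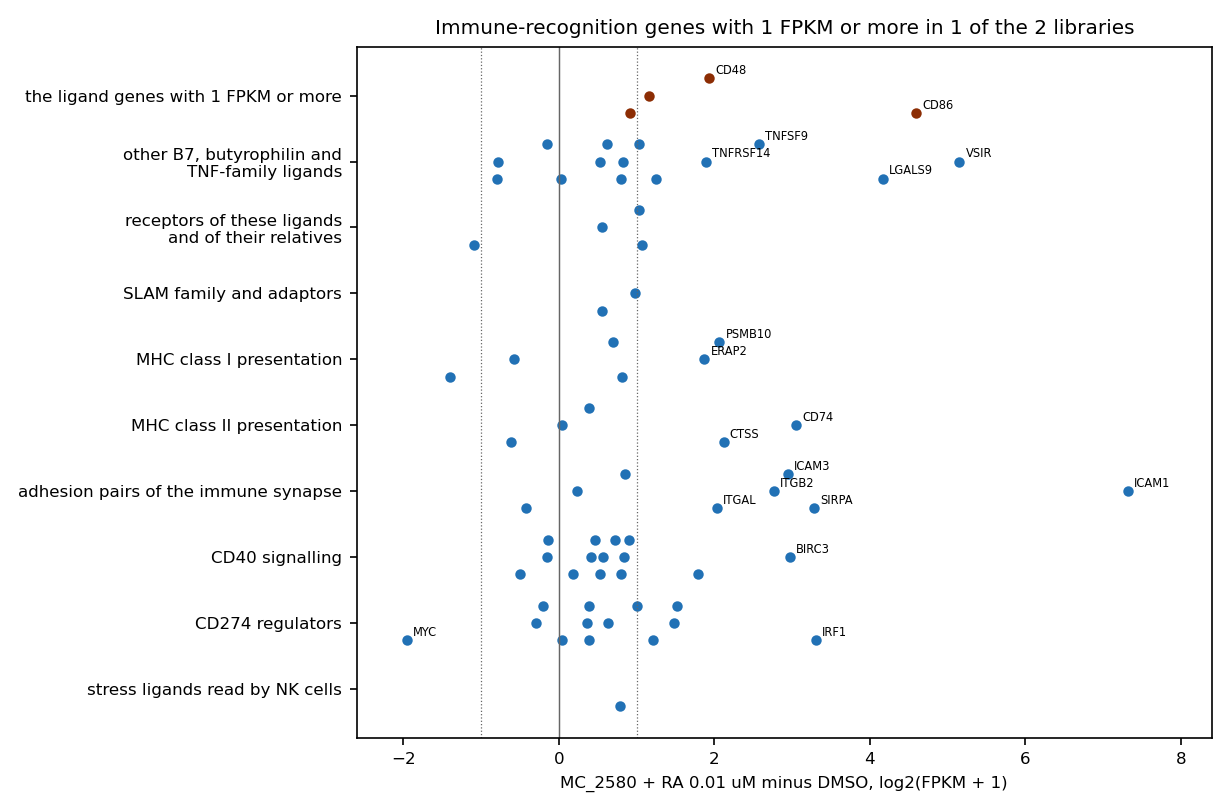
Difference of the combination from DMSO in log2(FPKM + 1) (horizontal axis) for the ligand genes (top row) and 9 lists of immune-recognition genes with 1 locus in both tables and at least 1 FPKM in 1 of the 2 libraries. Each point is a gene, spread vertically for legibility, dotted lines mark 2-fold, and genes beyond 1.8 are named. ICAM1 lies farthest right, and CD86 lies with VSIR and LGALS9.

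None of these 9 lists had a gene that passed between LSD1 KO and WT in limma. Of 70 genes tested in them, 5 had an unadjusted p under 0.05: CD2, ITGAL, TRAF5, NFKB1 and CLEC2B, named after their values were seen. That is 7.14% of them, near the 7.16% of all loci tested.

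Markers of other blood cells that show these ligands were read in the same libraries. Over 11 dendritic cell markers the summed level was 101.9 FPKM in the combination, 308.5 FPKM in MC_2580, 93.7 FPKM in RA 0.01 uM, 118.4 FPKM in RA 1 uM and 247.1 FPKM in DMSO, and FSCN1 made up most of it. FCER1A was at 0 in all 9 libraries, and 7 of the 11, CD1C and CLEC9A included, were below 1 FPKM in all of them. Some of these low markers ran against the sum. CLEC10A and LAMP3 had 0.942 and 0.884 FPKM in the combination, against 0 and 0.128 FPKM in DMSO. CLEC4C and CD1C were also highest in the combination, whereas FSCN1 and BATF3 were lower there than in DMSO. Of 7 B cell markers, CD79A and CD79B alone reached 1 FPKM in any library, and MS4A1 was at 0 in all 9; their sum was 79.6 FPKM in the combination and 10.5 FPKM in DMSO, mostly CD79A. Of 8 monocyte and macrophage markers, 4 were below 1 FPKM in all libraries, and the 6 with a value in every library summed to 6.29 FPKM in the combination and 5.09 FPKM in DMSO. That sum leaves out CSF1R and CD14, which were high in the combination. CSF1R, the macrophage growth factor receptor, had 23.05 FPKM in the combination, 7.49 FPKM in MC_2580, 12.5 FPKM in RA 0.01 uM and 6.84 FPKM in RA 1 uM, with a failed value in DMSO. CD14 had 3.03 FPKM in the combination, 0.221 FPKM in MC_2580, 0.124 FPKM in RA 0.01 uM and 0.109 FPKM in DMSO, with a failed value in RA 1 uM, so both were highest in the same library as CD86. Over 8 T and NK cell markers the sum was 230.4 FPKM in the combination and 140.7 FPKM in DMSO, and 335.2 and 264.9 FPKM in LSD1 KO, against 201.4 and 128.3 FPKM in WT. These markers did not move together. NKG7 had 91.02 FPKM in the combination and 21.92 FPKM in DMSO, and CD4 had 74.85 and 35.53 FPKM. CD3D was lower, with 57.31 and 74.37 FPKM, as were NCAM1, CD8A and CD3G. The KO sums were mostly CD3D, with 212.9 and 172.5 FPKM, against 114.5 and 68.99 FPKM in WT. CD3G was also higher in KO, with 12.9 and 13.6 FPKM, against 1.28 and 1.05 FPKM in WT (limma adjusted p 0.059). CD8A and NCAM1 were lower in KO than in WT. Of the B cell markers, CD79A had 7.87 and 8.77 FPKM in KO, against 1.79 and 1.43 FPKM in WT (limma adjusted p 0.114). The granulocyte precursor markers, 6 of 7 above 1 FPKM in every library, were expressed throughout and summed to 3723 FPKM in the combination and 5701 FPKM in DMSO, mostly MPO with 2873 and 5301 FPKM in these libraries. CEBPE, with 261.7 FPKM in the combination and 37.1 FPKM in DMSO, and PRTN3, with 454.1 and 177.8 FPKM, were higher in the combination than in DMSO. Both were higher still in RA 1 uM alone, at 341.1 and 965.8 FPKM. CTSG went the other way, with 4.65 FPKM in the combination and 58.6 FPKM in DMSO. The part of these cell markers in the levels of the ligand genes was not tested.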

How the data were processed

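RNA was measured in 9 NB4 libraries. Both tables hold FPKM values that the authors deposited, in the layout of Cuffdiff per the file headers. The submitters' processing notes list Cuffdiff, Cufflinks, TopHat2 2.0.10, TopHat 1.3.1, CASAVA 1.8 and hg18, without roles, so library scaling is not given in the sources used here. The 0.001 FPKM that the authors had added in the knockout table was taken off. The authors deposited log2 fold changes, p-values and q-values of single libraries against each other; those of the treatment table, a score here because they reach 1.44, were used only through the authors' calls. Treatment values with a failed status, all at 0, were treated as missing. Starts count from 0 (with 1 added, 1522 of 17048 locus lengths equalled GENCODE gene lengths), so 1 was added. Symbols were matched to RefSeq names, 20669 for the knockout and 20678 for the treatments, which gave 17318 and 17336 protein-coding genes with 1 locus.

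For KO and WT, log2(FPKM + 1) was fitted in limma 3.58.1 with a trend (R 4.3.3), over loci where 1 genotype averaged 1 FPKM or more, at a Benjamini-Hochberg adjusted p of 0.05. The fit was tested on simulated data. Over all loci it recovered none of the smallest changes, a minority of the next larger and most of the largest. Over protein-coding genes alone it recovered most changes of each size. The simulated libraries varied independently of each other, unlike the same-numbered libraries here. A member that did not pass may therefore have changed. Treatments have 1 library each and no test. The 9 gene lists and 5 marker lists (182 entries, 156 with 1 locus in both tables) and the members were chosen with earlier results of these data known. The combination against MC_2580 was added after the data were seen. Genes named are the members, the 4 largest list genes past 2-fold or those that receive or relay a member's signal, and the 3 nearest genes of each member that reached 1 FPKM and varied by at least 1 on the log2 scale. ICOSLG, BTN2A1, BTN3A3, CMTM6, STAT2, ITGAL, CLEC2B, the other SLAM genes and PDCD1LG2 fall outside this rule and were chosen after their values were seen. The markers CD3D, NCAM1, CD8A, CD3G, CLEC10A, LAMP3, CLEC4C and CD1C were likewise named after their values were seen. Matplotlib 3.10.9 drew the figures.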

Additional observations from a re-analysis of the deposited data

Results flagged for a closer look

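For 3 of the ligand genes, 1 agent's difference pointed one way alone and the other way in the presence of the second agent, in log2(FPKM + 1) with 1 library each, so that the difference between the 2 effects was not tested. For CD48, RA 0.01 uM differed by 0.51 from MC_2580 in cells that also had MC_2580, and by -1.77 from DMSO without it. For CD40, RA 0.01 uM differed by 0.78 with MC_2580 present and by -0.11 without it, and MC_2580 differed by 0.68 with RA 0.01 uM present and by -0.21 without it, with every CD40 value below 1 FPKM. For CD274, MC_2580 differed by 0.29 with RA 0.01 uM present and by -0.034 without it. The latter pair was below 1 FPKM, and -0.034 is smaller in size than the gene's pooled SD of 0.0894 within LSD1 KO and WT. Its direction is therefore not clear.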

How the results depend on the processing

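Of the recomputed counts 65 stayed within 1.5 times and 37 moved, of the recomputed single-gene values 88 kept their call or moved by less than the gene's pooled SD within LSD1 KO and WT (no spread exists among single treatment libraries) and 39 moved more, and none of the called values changed sign. Between LSD1 KO and WT, the 15 loci became 38 with a pseudocount of 0.1 FPKM, 59 among protein-coding genes with 1 locus (43 higher, 16 lower), 0 without the filter on low values (2059 at an unadjusted p under 0.05), and 0 to 0 when any 1 library was left out (654 to 801 at an unadjusted p under 0.05; a lone library is assumed to vary like the other group); the authors' calls gave 117 and 96, with 1 member each. With the replicate block the count was 0 (3198 at a limma unadjusted p under 0.05). With 2 pairs, the shared numbers alone do not show a pairing, and the labels state none. Same-numbered libraries did deviate together (correlation 0.21 over all loci, 0.855 over protein-coding genes). The main fit, without the block, counts this shared deviation as spread. CD48 ran from 2.14 to 3.69 and CD58 from 0.33 to 0.95 with 1 library left out, never past the threshold.

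A 4-fold threshold left 726 loci (from 1894) and 1 member for the combination against DMSO, 325 (from 531) and 0 for MC_2580, 529 (from 1279) and 0 for RA 0.01 uM, 564 (from 1462) and 0 for RA 1 uM, 411 (from 950) for the combination against RA 0.01 uM, 294 (from 482) for RA 1 uM against RA 0.01 uM, 361 (from 803) for the combination against RA 1 uM and 663 (from 1704) against MC_2580. Protein-coding genes with 1 locus gave 72, 743, 896, 486, 89, 374 and 1108 in the same order from MC_2580 on. The authors' calls held 1 member for MC_2580, 0 for RA 0.01 uM, 2 for RA 1 uM, 1 for RA 1 uM against RA 0.01 uM and 3 for the combination against MC_2580, where a pseudocount of 0.1 FPKM gave 2. That pseudocount widened the differences of low genes, CD86 in the combination to 6.67 and CD274 to 2.45. The cause of the other shifts was not tested.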
